A study of Homo sapiens with 24 samples.

Results

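The RNA-Seq samples labelled A-498 were compared for the dependence of interferon gamma (IFNγ) effects on an siRNA against PD-L1. These were 12 of the 24 samples of the series, chosen by their cell line label alone, with 3 samples in each of 4 groups. For every gene the quantity of interest was the log2 change with IFNγ under PD-L1 siRNA minus the log2 change with IFNγ under control siRNA, called the interaction below. Of the 39321 genes in the count table, 20916 had counts that summed to at least 10 over the 3 samples of a group, and these were tested.

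A-498 and 786-0 are long-established lines of a human kidney tubule tumour, the clear cell carcinoma. All A-498-labelled samples were transfected at 20 nM, either with a non-targeting siRNA pool (Cnsi) or with an siRNA pool against PD-L1 (PD-L1si), and after 24 h were kept without cytokine or given IFNγ at 50 ng/mL for another 24 h. The groups without cytokine are called Cnsi and PD-L1si, and those with it Cnsi IFNγ and PD-L1si IFNγ. The labels describe the PD-L1 samples as a knockout genotype while the protocol describes siRNA, and the extraction protocol lists 3 groups while the labels give 4. Total counts per sample ran from 19256316 to 27907526. The labels do not say that replicates came from separate cultures, so the p-values measure the spread between these samples, which may be technical.

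IFNγ is a cytokine of activated T and natural killer cells. Its receptor signals to genes with GAS elements, among them *IRF1*, whose product is a transcription factor that drives a later wave of genes through ISRE elements, among them those for antigen presentation, guanylate-binding proteins, chemokines and PD-L1. PD-L1, the product of *CD274*, is the ligand by which tumour cells inhibit T cells through PD-1. An interaction contrast asks whether the fold change with IFNγ was the same under both siRNAs. A positive value means a log2 IFNγ effect that was more positive under PD-L1 siRNA, which can be a larger increase, a smaller decrease, or a decrease turned into an increase.

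*CD274* (ENSG00000120217.14, chr9:5450503-5470566 on the plus strand of GRCh38) checked the siRNA labels. Its raw counts were 100, 138 and 144 in Cnsi, 4546, 5134 and 3976 in Cnsi IFNγ, 23, 24 and 26 in PD-L1si, and 617, 540 and 571 in PD-L1si IFNγ. Every PD-L1si sample was below every Cnsi sample of the same treatment, and every IFNγ sample was above every sample without it. The log2 siRNA effect on *CD274* was -2.47 without IFNγ and -2.81 with it, and the log2 IFNγ effect was 5.25 in Cnsi and 4.92 in PD-L1si. The interaction of *CD274* itself was -0.34 ± 0.20 (log2 ± SE) and did not pass the test (edgeR quasi-likelihood test, Benjamini-Hochberg adjusted p = 0.348). Over the alternatives it ran from -0.45 to -0.19 and was not called in any.

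The cell type was checked by markers, which cannot tell the 2 kidney lines apart. Of 10 kidney and clear cell carcinoma markers all 10 were in the table and VIM, which mesenchymal cells also express, was by far the most abundant at 1084702 counts over the 12 samples, with PAX8, PAX2, KRT8, KRT18 and CDH16 each over 1000 counts in total, the clear cell markers CA9 and NDUFA4L2 at 344 and 683, EPCAM at 908, and the proximal tubule receptor gene LRP2 at 4 counts over the 12 samples. Their summed level, mostly VIM, was 3780 to 5480 CPM (counts scaled to library size with TMM factors) per sample. Of 10 T lymphocyte markers 5 were in the table, CD2 was at 0, and the most abundant, CD4, had 41 counts over the 12 samples. The myeloid markers, 4 of 5 in the table with CSF1R on top, summed to 0.252 to 1.01 CPM per sample. The 7 fibroblast and endothelial markers, with COL1A1 on top and CDH5 at 0, summed to 2.47 to 2.87 CPM in Cnsi, 1.30 to 1.47 in Cnsi IFNγ, 3.07 to 4.20 in PD-L1si and 1.27 to 2.31 in PD-L1si IFNγ. None of the tested T lymphocyte, myeloid or fibroblast and endothelial markers was called by edgeR, DESeq2 or limma voom, and 0 of them had an unadjusted p under 0.05 in edgeR. Mitochondrial transcripts took 3.63 to 4.46 percent of counts in Cnsi, 1.45 to 2.05 in Cnsi IFNγ, 3.02 to 4.09 in PD-L1si and 1.85 to 2.46 in PD-L1si IFNγ, and their part in the results was not tested. In bulk RNA a change in the number of cells that express a gene and a change in RNA per cell cannot be told apart.

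Genes were called at an adjusted p under 0.05 with a log2 interaction over 0.5 in either direction, and 378 were called positive (1.81 percent of those tested) and 135 negative (0.645 percent), together 2.45 percent. The adjusted p alone was passed by 1327 positive and 573 negative genes. The median log2 interaction was 0.73 among the positive calls, -0.71 among the negative calls and 0.04 over all genes tested. A log2 size over 1 was reached by 84 positive and 35 negative genes. Protein-coding genes made up 289 of the positive and 82 of the negative calls, and long non-coding RNAs 67 and 38. Of the 13846 protein-coding genes tested 2.68 percent were called, and of the 4776 long non-coding RNAs 2.20 percent. In a principal component plot of the 12 samples, the first component (70.9 percent of the variance) separated samples by IFNγ and the second (8.64 percent) by siRNA.

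Positive calls fell into 3 classes by the signs of the fitted IFNγ effects. In 184 genes the log2 IFNγ effect was negative in both siRNA groups and smaller in PD-L1si. In 122 genes it was positive in both and larger in PD-L1si. The other 72 had a negative effect in Cnsi and a positive effect in PD-L1si. Negative calls comprised 62 genes raised by IFNγ in both groups but less in PD-L1si, 48 with a positive fitted effect in Cnsi and a negative effect in PD-L1si, and 25 with negative effects in both that were larger in PD-L1si. Signs were taken as fitted, without requiring either effect to pass a test. An effect in 1 siRNA group may thus be near 0, as for *DRP2* in Cnsi (log2 0.00164). The plot of IFNγ effects under the 2 siRNAs shows these classes.

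**Figure D1:**
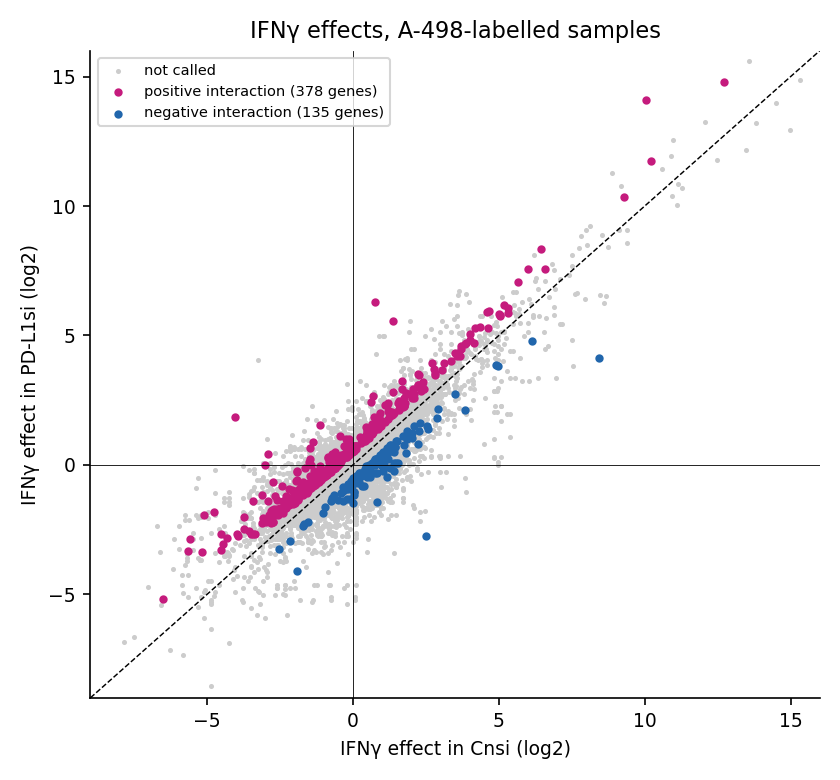
IFNγ effect in PD-L1si (vertical axis, log2) against IFNγ effect in Cnsi (horizontal axis, log2) for all genes tested in the A-498-labelled samples, with positive calls in magenta, negative calls in blue and other genes in grey. The 378 positive calls lie above the dashed line of equal effects and the 135 negative calls below it.

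Among genes raised by IFNγ, the interferon genes with the largest interactions started lower in PD-L1si and, as a ratio, ended nearer to the Cnsi level. *OAS2* (chr12:112978395-113011723, plus strand) encodes an enzyme that makes the 2-5A signal for RNA decay. Its level was 3.07, 3.30 and 3.87 CPM in Cnsi, 291, 295 and 304 in Cnsi IFNγ, 0.599, 0.548 and 0.641 in PD-L1si, and 189, 204 and 196 in PD-L1si IFNγ. The 4 groups did not overlap, and PD-L1si samples were lowest both without and with IFNγ. IFNγ raised *OAS2* 86.8-fold in Cnsi and 326-fold in PD-L1si, a log2 interaction of 1.91 ± 0.18 (SE; edgeR quasi-likelihood test, BH-adjusted p = 2.1e-09). *GBP1* (chr1:89051882-89065360, minus strand), a guanylate-binding GTPase of cell-autonomous immunity, was at 45.7, 48.4 and 45.7 CPM in Cnsi, 4556, 4457 and 4436 in Cnsi IFNγ, 18.1, 18.2 and 20.5 in PD-L1si, and 3459, 3818 and 3628 in PD-L1si IFNγ. Again no groups overlapped, and the siRNA difference was 0.406-fold without IFNγ and 0.811-fold with it. The fold rise of *GBP1* was 96.2 in Cnsi and 192 in PD-L1si (log2 interaction 1.00 ± 0.07; edgeR quasi-likelihood test, BH-adjusted p = 1.9e-12). In absolute CPM the rise of *GBP1* was smaller in PD-L1si, 3616 against 4436.

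*CXCL10*, a chemokine that attracts T cells through CXCR3, was at 1.36, 1.27 and 1.56 CPM in Cnsi, 1665, 1695 and 1604 in Cnsi IFNγ, 0.247, 0.295 and 0.249 in PD-L1si, and 855, 995 and 902 in PD-L1si IFNγ. PD-L1si samples were below Cnsi samples in both treatments. The base values of *CXCL10* in PD-L1si rested on 7 raw counts per sample, and its log2 interaction was 1.54 ± 0.28 (edgeR quasi-likelihood test, BH-adjusted p = 0.000223). *IRF1*, the transcription factor named above, was at 56.3, 59.2 and 60.6 CPM in Cnsi, 1436, 1475 and 1426 in Cnsi IFNγ, 32.02, 33.3 and 31.9 in PD-L1si, and 1282, 1239 and 1244 in PD-L1si IFNγ. Its groups did not overlap, with IFNγ effects of 24.6-fold in Cnsi and 38.8-fold in PD-L1si. The log2 interaction of *IRF1* was 0.65 ± 0.06 (edgeR quasi-likelihood test, BH-adjusted p = 6.6e-10).

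The 300 bases around the RefSeq start (GRCh38.p14) are shown for *CD274* (chr9:5450292-5450591, plus strand), *GBP1* (chr1:89065159-89065458, minus strand), *IRF1* (chr5:132490724-132491023, minus strand) and *CXCL10* (chr4:76023448-76023747, minus strand), 5′ to 3′ along each gene's strand. Capitals mark matches on either strand to the GAS letters TTCNNNGAA or the ISRE core GAAANNGAA, whose reverse complement is TTCNNTTTC.
CD274: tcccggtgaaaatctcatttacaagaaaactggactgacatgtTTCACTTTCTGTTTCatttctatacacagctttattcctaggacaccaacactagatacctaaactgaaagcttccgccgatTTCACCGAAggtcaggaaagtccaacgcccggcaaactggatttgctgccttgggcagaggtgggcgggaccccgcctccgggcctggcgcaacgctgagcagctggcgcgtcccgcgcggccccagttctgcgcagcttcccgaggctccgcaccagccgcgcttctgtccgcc
GBP1: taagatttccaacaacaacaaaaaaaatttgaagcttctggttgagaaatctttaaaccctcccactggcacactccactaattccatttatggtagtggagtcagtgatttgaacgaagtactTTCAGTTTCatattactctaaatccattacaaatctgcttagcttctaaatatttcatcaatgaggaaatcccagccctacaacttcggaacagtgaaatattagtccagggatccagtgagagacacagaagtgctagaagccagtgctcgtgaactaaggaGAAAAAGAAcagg
IRF1: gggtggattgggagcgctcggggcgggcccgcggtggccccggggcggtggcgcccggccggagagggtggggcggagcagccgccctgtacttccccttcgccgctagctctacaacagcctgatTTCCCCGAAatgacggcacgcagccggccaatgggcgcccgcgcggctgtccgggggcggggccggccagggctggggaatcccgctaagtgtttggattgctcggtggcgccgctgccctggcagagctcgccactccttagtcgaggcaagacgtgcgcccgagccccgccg
CXCL10: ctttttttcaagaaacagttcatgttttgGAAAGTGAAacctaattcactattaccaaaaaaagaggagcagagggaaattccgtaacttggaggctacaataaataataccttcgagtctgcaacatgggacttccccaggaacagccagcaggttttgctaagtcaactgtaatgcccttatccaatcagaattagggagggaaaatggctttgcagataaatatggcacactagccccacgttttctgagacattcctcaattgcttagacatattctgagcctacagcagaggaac
*CD274* held 1 GAS match and 2 overlapping ISRE core matches, *GBP1* held 2 ISRE core matches, *IRF1* held 1 GAS match and *CXCL10* held 1 ISRE core match. The promoters of *XAF1* and *PSMB9*, which were also raised more in PD-L1si, held no match to either. An ISRE core match was present in 8.95 percent of the 12616 promoters matched to tested genes, and in 26.9 percent of the 78 matched of the 122 genes raised more in PD-L1si. For the 62 genes raised less in PD-L1si, with 32 matched, the share was 3.12 percent. These matched shares cover under 80 percent of each class, so the comparison over classes is void and stands as a description. GAS matches were in 8.73 percent of tested promoters, 16.7 percent of the genes raised more and 18.8 percent of those raised less. Over all 35116 promoters in the table, an ISRE core match was in 8.11 percent and a GAS match in 7.66 percent.

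**Figure D2:**
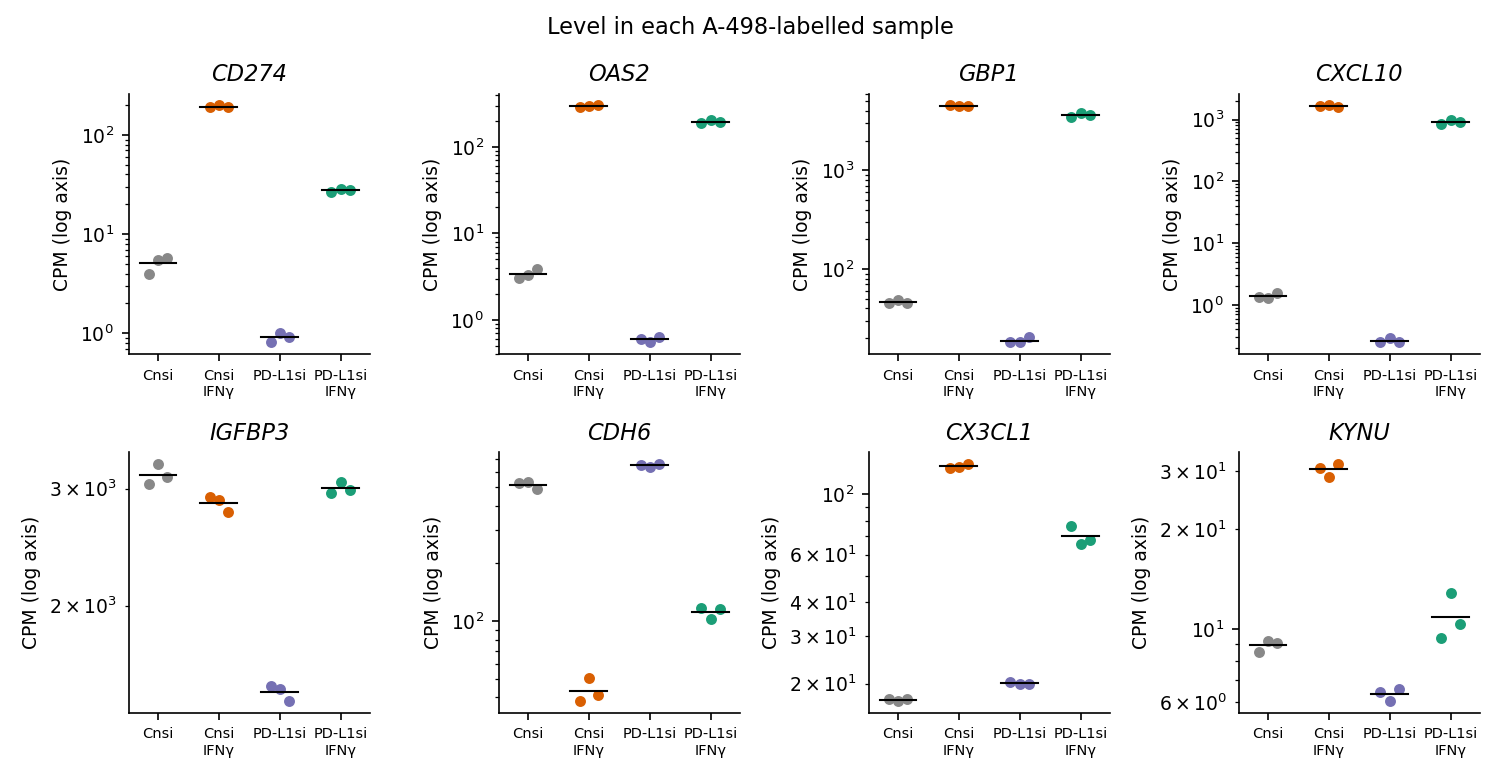
Level in CPM (log axes that do not start at 0) of 8 genes in each of the 12 A-498-labelled samples, with 1 point per sample and a bar at the mean of 3. *OAS2*, *GBP1* and *CXCL10* start lower in PD-L1si and, as a ratio, come nearer to Cnsi with IFNγ. *IGFBP3* is low only in the 3 PD-L1si samples without IFNγ, *CDH6* is lowered less in PD-L1si as a fold, and *CX3CL1* and *KYNU* are raised less.

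Of 31 antiviral interferon-stimulated genes tested, 6 were called positive (*MX1*, *MX2*, *OAS1*, *OAS2*, *SAMD9L* and *XAF1*), against 1.81 percent of all genes tested, and none negative, with a median log2 interaction of 0.29. *MX2*, a dynamin-like GTPase, had a mean of 1.61 ± 0.32 CPM (SD, n = 3) in Cnsi, 103 ± 4.80 in Cnsi IFNγ, 0.254 ± 0.0797 in PD-L1si and 48.8 ± 4.24 in PD-L1si IFNγ, a log2 interaction of 1.58. *OAS1*, the sister of *OAS2*, rose 18.0-fold in Cnsi and 39.0-fold in PD-L1si. *XAF1*, an interferon-induced antagonist of the apoptosis inhibitor XIAP, was at 15.0, 16.8 and 16.1 CPM in Cnsi, 389, 382 and 390 in Cnsi IFNγ, 6.16, 6.70 and 6.30 in PD-L1si, and 363, 381 and 389 in PD-L1si IFNγ. The IFNγ groups of *XAF1* overlapped while the groups without IFNγ did not (log2 interaction 1.29). The stated counting mode takes reads on the forward strand, while a stranded kit of this kind usually gives reads on the reverse strand, so the strand behind each count is uncertain and all or part of a gene's value may belong to an opposite-strand partner. Some such pairs had similar interactions and others did not: *PRAL*, across from *XAF1*, had a log2 interaction of 1.29, and *ENSG00000257452*, which overlaps *OAS1* (1.12) and *OAS2* (1.91), had 1.05, while *ENSG00000237568*, across from the positive call *GBP5*, had -2.04, which was not called. In all, 50 positive and 6 negative calls overlapped a called gene on the other strand.

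Guanylate-binding proteins and other IFNγ effectors were called positive in 7 of 25 tested (*APOL2*, *GBP1*, *GBP3*, *GBP4*, *GBP5*, *TRIM21* and *WARS1*), against 1.81 percent of all genes tested, none was called negative, and their median log2 interaction was 0.45. *WARS1*, the tryptophanyl-tRNA synthetase, rose 32.9-fold in Cnsi and 55.4-fold in PD-L1si, from 124 to 4095 CPM and from 52.4 to 2901 CPM (log2 interaction 0.75). An antisense RNA across from it, *ENSG00000258666*, had a log2 interaction of 0.72. *GBP5* had raw counts of 6, 8 and 12 in Cnsi and 3, 2 and 0 in PD-L1si, against a mean of 2369 ± 70.8 CPM in Cnsi IFNγ and 1940 ± 65.5 in PD-L1si IFNγ. Its base groups did not overlap, but the fitted fold rests on these few counts and its call was lost without Cnsi replicate 3 (adjusted p = 0.0841) or PD-L1si replicate 3 (adjusted p = 0.128), both from the same edgeR quasi-likelihood test with BH adjustment. *GBP4* had 35, 33 and 41 counts in Cnsi and 21, 16 and 9 in PD-L1si, and lost its call without PD-L1si replicate 3 (edgeR quasi-likelihood test, BH-adjusted p = 0.0637). *GBP7* had at most 6 counts in any sample and was not called.

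Class I antigen presentation had 2 positive calls among 22 genes tested, against 1.81 percent over all genes, and a median log2 interaction of 0.24. At the adjusted p alone 15 members were positive and 1 negative, against 1327 and 573 of all 20916 genes tested. *PSMB9*, an immunoproteasome subunit, rose 20.5-fold in Cnsi and 40.0-fold in PD-L1si (log2 interaction 0.96). *TAP1*, a subunit of the peptide transporter, rose 17.6-fold and 26.3-fold (0.57). These 2 genes lie on opposite strands and overlap. In class II antigen presentation, 1 of 15 genes was called, *HLA-DPA1*, against 2.45 percent over all genes, and the list's median was -0.20. *HLA-DPA1* had raw counts of 1, 2 and 5 in Cnsi, 0, 0 and 0 in PD-L1si, 2843, 2991 and 2449 in Cnsi IFNγ, and 2153, 1719 and 1790 in PD-L1si IFNγ. Both base groups were at or near 0, so no fold is given. Its call was lost by limma voom (adjusted p = 0.0808) and, in edgeR's quasi-likelihood test with BH adjustment, without Cnsi replicate 3 (adjusted p = 0.183) or PD-L1si replicate 1 (0.0987), 2 (0.0776) or 3 (0.0956).

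The list of receptor signalling and its inhibitors had 3 positive calls and 1 negative call of 21 tested, against 1.81 and 0.645 percent over all genes, with a median of 0.12. *IRF7*, a transcription factor for interferon genes, rose 8.65-fold in Cnsi and 15.2-fold in PD-L1si (log2 interaction 0.82). *PTPN6*, the phosphatase SHP-1, fell by IFNγ to 0.518-fold in Cnsi, and its fold in PD-L1si was 0.734. The log2 interaction of *PTPN6*, 0.50, was at the threshold, and it ran from 0.41 (without Cnsi IFNγ replicate 2) to 0.54 over the alternatives, of which 10 lost the call. The negative member, *SOCS3*, is described with the negative calls.

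Of 16 chemokine genes tested, *CXCL1*, *CXCL5*, *CXCL8* and *CXCL10* were called positive and *CX3CL1* negative, against 1.81 and 0.645 percent over all genes, with a median of 0.46. *CXCL8*, the neutrophil chemokine interleukin 8, was at 39.1, 42.9 and 37.9 CPM in Cnsi, 14.7, 17.7 and 15.5 in Cnsi IFNγ, 7.22, 8.42 and 7.37 in PD-L1si, and 6.68, 6.44 and 6.15 in PD-L1si IFNγ. The PD-L1si samples were lowest in both treatments, and the IFNγ effect was 0.401-fold in Cnsi and 0.842-fold in PD-L1si. Its log2 interaction was 1.07 ± 0.13 (edgeR quasi-likelihood test, BH-adjusted p = 1.6e-07). *CXCL1*, another neutrophil chemokine, had IFNγ effects of 0.602-fold in Cnsi and 1.34-fold in PD-L1si (log2 interaction 1.16). *CCL7* had at most 6 counts in a sample and was not called.

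Of 59 TNFα and NF-κB target genes tested, 9 were called positive (among them *BIRC3*, *EDN1*, *ICAM1*, *IL6*, *KLF4*, *RELB*, *TNFRSF9* and *TNFSF10*) and 1 negative (*EREG*), against 1.81 and 0.645 percent over all genes, with a median of 0.11. *IL6*, the acute-phase cytokine, was at 11.2, 11.6 and 10.6 CPM in Cnsi, 72.1, 74.4 and 80.3 in Cnsi IFNγ, 2.04, 2.11 and 2.07 in PD-L1si, and 27.8, 26.1 and 27.0 in PD-L1si IFNγ. No groups overlapped, and its PD-L1si level was 0.186-fold of Cnsi without IFNγ and 0.358-fold with it (log2 interaction 0.94). *BIRC3*, an apoptosis inhibitor of the NF-κB pathway, was at 182, 187 and 176 CPM in Cnsi, 169, 176 and 164 in Cnsi IFNγ, 89.3, 87.3 and 92.9 in PD-L1si, and 139, 165 and 155 in PD-L1si IFNγ. Only the PD-L1si samples without IFNγ were far below the rest, and IFNγ raised *BIRC3* 1.70-fold in PD-L1si against 0.935-fold in Cnsi (log2 interaction 0.86). *IL1B* had at most 11 counts in a sample and was not called.

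Stress and immediate early genes included *ATF3*, *DDIT3*, *STC2* and *TRIB3*, the 4 positive calls among 23 genes of the ATF4 stress response (none negative, median 0.26), against 1.81 percent over all genes. *ATF3*, a stress-induced transcription factor, was at 17.4, 19.7 and 20.7 CPM in Cnsi, 214, 233 and 231 in Cnsi IFNγ, 7.33, 9.22 and 7.80 in PD-L1si, and 151, 152 and 150 in PD-L1si IFNγ. PD-L1si was below Cnsi in both treatments, and the IFNγ rise of *ATF3* was 11.7-fold in Cnsi and 18.7-fold in PD-L1si (log2 interaction 0.67 ± 0.09; edgeR quasi-likelihood test, BH-adjusted p = 3.3e-06). *TRIB3*, a pseudokinase that inhibits AKT, rose 1.41-fold in Cnsi and 2.17-fold in PD-L1si (log2 interaction 0.62). *DDIT3*, the factor CHOP, had a log2 interaction of 0.54, which was 0.50 and under the threshold without PD-L1si replicate 3. *STC2*, the glycoprotein hormone stanniocalcin, had 0.52, and 5 of the 12 omissions of a sample took it under the threshold, to 0.47 at the least (without PD-L1si replicate 3). The 17 AP-1 and immediate early genes had 2 positive calls, *ATF3* and *JUNB*, against 1.81 percent over all genes, and a median of 0.13. *JUNB*, an AP-1 subunit, had a log2 interaction of 0.52, with 4 omissions of a sample that lost the call and a lowest value of 0.45 (without PD-L1si replicate 3). *EGR2* was at 0.730 CPM in Cnsi, 1.25 in Cnsi IFNγ, 0.511 in PD-L1si and 1.74 in PD-L1si IFNγ and was not called, except without Cnsi replicate 3 (log2 interaction 1.13 against 0.99).

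Genes lowered by IFNγ made up the largest positive class, and their main difference was under IFNγ. *CDH6* (chr5:31193686-31329146, plus strand), the kidney cadherin, was at 522, 530 and 487 CPM in Cnsi, 38.3, 50.4 and 41.0 in Cnsi IFNγ, 654, 635 and 661 in PD-L1si, and 117, 103 and 116 in PD-L1si IFNγ. The 4 groups did not overlap, and PD-L1si was higher than Cnsi in both treatments, 1.27-fold without IFNγ and 2.58-fold with it. IFNγ lowered *CDH6* to 0.0845-fold in Cnsi and 0.172-fold in PD-L1si, a log2 interaction of 1.03 ± 0.10 (edgeR quasi-likelihood test, BH-adjusted p = 1.8e-06). In absolute CPM *CDH6* fell by 470 in Cnsi and by 538 in PD-L1si. *ENSG00000254138*, across from it, was also called positive.

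*ACSM2A*, a medium-chain acyl-CoA synthetase of kidney and liver mitochondria, was at 28.6, 27.5 and 27.4 CPM in Cnsi, 0.922, 1.63 and 0.962 in Cnsi IFNγ, 43.7, 40.7 and 47.0 in PD-L1si, and 6.90, 6.54 and 7.46 in PD-L1si IFNγ. PD-L1si samples were higher in both treatments (log2 interaction 1.89 ± 0.18; edgeR quasi-likelihood test, BH-adjusted p = 1.1e-09). A close paralog makes the assignment of its reads uncertain. *MMP7*, a matrix metalloproteinase, was at 105, 110 and 105 CPM in Cnsi, 14.8, 16.4 and 15.6 in Cnsi IFNγ, 70.7, 74.4 and 69.9 in PD-L1si, and 20.6, 21.9 and 21.1 in PD-L1si IFNγ. Here the order of the siRNA groups crossed over, with PD-L1si lower without IFNγ and higher with it, at 0.672-fold and 1.35-fold (log2 interaction 1.01). *GASK1B*, a Golgi-associated kinase, went from a mean of 20.3 to 3.75 CPM in Cnsi and from 25.5 to 14.5 in PD-L1si (log2 interaction 1.63). Its antisense RNA *GASK1B-AS1* had the largest interaction of the positive calls with at least 1 CPM on average and at least 10 counts in every group, 2.05, and the pair shares a stretch of the locus on opposite strands.

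Matrix and adhesion genes had 6 positive calls of 42 tested (*CDH1*, *CDH6*, *COL12A1*, *COL5A2*, *COL8A1* and *MMP7*), against 1.81 percent over all genes, none negative by edgeR and 1 by DESeq2, and a median of 0.15. *CDH1*, epithelial cadherin, had raw counts of 87, 70 and 70 in Cnsi, 24, 21 and 10 in Cnsi IFNγ, 173, 129 and 170 in PD-L1si, and 91, 66 and 79 in PD-L1si IFNγ. IFNγ lowered it to 0.260-fold in Cnsi, and its fold in PD-L1si was 0.642 (log2 interaction 1.30). *AKR1C3*, an aldo-keto reductase of steroid and prostaglandin metabolism and the positive call among 26 NRF2 targets and metallothioneins, was lowered to 0.114-fold in Cnsi and 0.211-fold in PD-L1si (log2 interaction 0.89, list median 0.06). A single call there is near the 2.45 percent over all genes, and DESeq2 also called 1 member negative. *MT1G* had at most 8 counts in a sample. *NTRK3*, the receptor of neurotrophin 3, was lowered to 0.134-fold and 0.383-fold (1.51).

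*IGFBP3* (chr7:45912245-45921874, minus strand), a secreted carrier of insulin-like growth factors, had the smallest p of the positive calls at 100 CPM and over. Its level was 3042, 3267 and 3126 CPM in Cnsi, 2911, 2887 and 2765 in Cnsi IFNγ, 1513, 1501 and 1439 in PD-L1si, and 2954, 3064 and 2985 in PD-L1si IFNγ. The 3 PD-L1si samples without IFNγ stood below all others, while the other groups lay within 2765 to 3267 CPM. IFNγ raised *IGFBP3* 2.02-fold in PD-L1si and the effect in Cnsi was 0.908-fold, a log2 interaction of 1.16 ± 0.05 (edgeR quasi-likelihood test, BH-adjusted p = 4.6e-17). *SLCO2B1*, an organic anion transporter, was also lowest in PD-L1si without IFNγ, with means of 5.83 CPM in Cnsi, 4.29 in Cnsi IFNγ, 2.95 in PD-L1si and 6.40 in PD-L1si IFNγ (log2 interaction 1.55). Unlike *IGFBP3*, it also differed between the siRNAs with IFNγ, at 1.49-fold, and IFNγ lowered it to 0.738-fold in Cnsi. *LOX*, the collagen cross-linking enzyme, had 33.6, 31.9, 16.0 and 23.7 CPM (0.64).

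*CX3CL1* (chr16:57372477-57385044, plus strand), the membrane-bound chemokine fractalkine, had the smallest p of the negative calls from 10 to 100 CPM. Its level was 17.6, 17.3 and 17.6 CPM in Cnsi, 126, 126 and 130 in Cnsi IFNγ, 20.4, 19.9 and 19.9 in PD-L1si, and 76.5, 65.8 and 68.2 in PD-L1si IFNγ. The groups did not overlap, and PD-L1si was slightly above Cnsi without IFNγ and below it with IFNγ. IFNγ raised *CX3CL1* 7.28-fold in Cnsi and 3.50-fold in PD-L1si, a log2 interaction of -1.05 ± 0.08 (edgeR quasi-likelihood test, BH-adjusted p = 1.4e-11). *SOCS3*, the feedback inhibitor of cytokine receptors, was at 26.2, 25.5 and 25.6 CPM in Cnsi, 89.6, 87.4 and 93.8 in Cnsi IFNγ, 30.1, 30.5 and 29.2 in PD-L1si, and 64.9, 65.0 and 61.8 in PD-L1si IFNγ. It followed the order of *CX3CL1*, with a rise of 3.50-fold in Cnsi and 2.14-fold in PD-L1si (log2 interaction -0.71). *EREG*, the growth factor epiregulin, rose 3.57-fold and 1.98-fold (-0.85).

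*KYNU* (chr2:142877657-143055833, plus strand), kynureninase of the tryptophan pathway, was at 8.53, 9.19 and 9.09 CPM in Cnsi, 30.7, 28.8 and 31.6 in Cnsi IFNγ, 6.45, 6.06 and 6.59 in PD-L1si, and 9.38, 12.8 and 10.3 in PD-L1si IFNγ. PD-L1si was below Cnsi in both treatments, 0.714-fold without IFNγ and 0.355-fold with it. The IFNγ rise of *KYNU* was 3.39-fold in Cnsi and 1.69-fold in PD-L1si (log2 interaction -1.01 ± 0.13; edgeR quasi-likelihood test, BH-adjusted p = 7.9e-07). Its promoter (chr2:142877414-142877713, plus strand, RefSeq on GRCh38.p14) is shown as a raised gene of the other direction, with 2 GAS matches in capitals and no ISRE core match. The promoters of *SOCS3*, *CMKLR2* and *EREG*, also raised less in PD-L1si, held neither.
KYNU: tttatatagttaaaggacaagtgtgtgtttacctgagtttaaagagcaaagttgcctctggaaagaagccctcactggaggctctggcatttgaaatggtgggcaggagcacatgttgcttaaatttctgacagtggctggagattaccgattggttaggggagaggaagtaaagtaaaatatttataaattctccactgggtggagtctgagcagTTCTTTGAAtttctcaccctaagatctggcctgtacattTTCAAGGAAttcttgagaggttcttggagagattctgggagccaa
*CMKLR2*, a chemerin receptor, went from 0.558 ± 0.104 to 39.8 ± 1.48 CPM (mean ± SD, n = 3) in Cnsi and from 0.825 ± 0.197 to 23.2 ± 1.33 in PD-L1si (-1.34).

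*GOT1*, the cytosolic aspartate aminotransferase, was the negative call among 23 genes of glutamine and amino acid supply, which had no positive call and a median of 0.20, against 0.645 percent negative over all genes. At the adjusted p alone 7 members were positive and 1 negative, against 1327 and 573 of all 20916 genes tested. The level of *GOT1* was 81.7, 77.9 and 75.4 CPM in Cnsi, 101, 108 and 102 in Cnsi IFNγ, 83.2, 85.2 and 83.5 in PD-L1si, and 73.1, 71.8 and 73.7 in PD-L1si IFNγ. Cnsi IFNγ samples were the highest and PD-L1si IFNγ samples the lowest, with fold values of 1.32 in Cnsi and 0.868 in PD-L1si (log2 interaction -0.60). *ATP2B1*, a plasma membrane calcium pump, rose 1.77-fold in Cnsi and was 1.18-fold in PD-L1si (-0.59). *KIF26B*, a kinesin family member, rose 5.80-fold and 2.86-fold (-1.02), and *KCNK3*, an acid-sensitive potassium channel, rose 4.05-fold and 2.07-fold (-0.97). *CDKN1C*, the cell cycle inhibitor p57, had raw counts of 40, 30 and 37 in Cnsi, 89, 94 and 57 in Cnsi IFNγ, 48, 48 and 52 in PD-L1si, and 35, 35 and 36 in PD-L1si IFNγ. Only the Cnsi IFNγ samples of *CDKN1C* were above the rest (log2 interaction -1.38).

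Several negative calls at low counts depended on single samples. *TFEC*, a transcription factor related to MITF, had raw counts of 30, 27 and 16 in Cnsi, 3, 10 and 5 in Cnsi IFNγ, 83, 69 and 96 in PD-L1si, and 1, 3 and 7 in PD-L1si IFNγ. PD-L1si samples without IFNγ were the highest and the IFNγ groups overlapped. Its log2 interaction of -2.19 was -1.70 without Cnsi IFNγ replicate 2 (edgeR quasi-likelihood test, BH-adjusted p = 0.207) and -1.69 without PD-L1si IFNγ replicate 1, and both omissions ended the call. *SCARF1*, a scavenger receptor, had 8, 11 and 8 counts in Cnsi, 128, 112 and 122 in Cnsi IFNγ, 11, 10 and 5 in PD-L1si, and 40, 26 and 23 in PD-L1si IFNγ. The base groups overlapped and the IFNγ groups did not (log2 interaction -1.71), and the call ended without PD-L1si replicate 1 (edgeR quasi-likelihood test, BH-adjusted p = 0.0867) or replicate 2 (0.0792). The non-coding RNA *LINC02802* (-1.65) lost its call by limma voom and in 6 of the 12 omissions of a sample, and was smallest without Cnsi IFNγ replicate 2, at -1.21. *DELEC1* (-1.18) lost it in 8, at -1.02 without PD-L1si IFNγ replicate 1, and the pseudogene *RPL3P7* (-1.14) without Cnsi replicate 1 or PD-L1si replicate 1. *CHP1P2*, another pseudogene whose reads may belong to its parent gene, had -1.20 and *TROAP-AS1* -1.19, and both kept their call in every alternative that gave an adjusted p, as did *CDKN1C* and *DRP2*.

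Complement genes were called in both directions, 2 positive and 2 negative of 16 tested, against 1.81 and 0.645 percent over all genes, with a median of 0.22. *C1R*, a protease of the classical pathway, rose 40.2-fold in Cnsi and 67.4-fold in PD-L1si (log2 interaction 0.74). *C1QTNF1*, a C1q-related secreted protein, rose 1.58-fold and 3.02-fold (0.94). *C4A*, the classical pathway component C4, had raw counts of 22, 20 and 20 in Cnsi, 589, 667 and 553 in Cnsi IFNγ, 61, 64 and 91 in PD-L1si, and 840, 774 and 735 in PD-L1si IFNγ. PD-L1si samples were higher in both treatments, and more so without IFNγ, with IFNγ effects of 31.0-fold in Cnsi and 14.0-fold in PD-L1si (log2 interaction -1.15). In absolute CPM the rise of *C4A* was larger in PD-L1si, 35.0 against 24.9. Its near-identical copy *C4B* had a log2 interaction of -1.05 and lost the call without Cnsi replicate 2 (edgeR quasi-likelihood test, BH-adjusted p = 0.0708), and reads cannot be assigned between the copies with confidence. *SAA2*, an acute-phase apolipoprotein with a close paralog, had raw counts of 28, 32 and 25 in Cnsi, 93, 88 and 72 in Cnsi IFNγ, 5, 4 and 7 in PD-L1si, and 43, 35 and 43 in PD-L1si IFNγ (log2 interaction 1.58). Its groups did not overlap. *FAM177B*, a gene of unknown function, had raw counts of 41, 38 and 31 in Cnsi, 67, 52 and 46 in Cnsi IFNγ, 3, 3 and 14 in PD-L1si, and 42, 21 and 38 in PD-L1si IFNγ. The PD-L1si samples without IFNγ were the lowest, and the log2 interaction of 1.99 was 3.05 without PD-L1si replicate 3.

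The siRNA effects in each treatment describe in which arm the called genes differed. The interaction equals the siRNA effect with IFNγ minus that without it. The values below therefore reuse those that selected the genes and are a description only. In the genes raised more in PD-L1si, the median log2 siRNA effect was -1.12 without IFNγ and -0.33 with it, and 118 of the 122 had a negative effect without IFNγ. In the genes lowered less, the median was 0.05 without IFNγ and 0.76 with it. The genes with a negative fitted IFNγ effect in Cnsi and a positive one in PD-L1si had medians of -0.50 and 0.34. Among negative calls the medians without and with IFNγ were 0.21 and -0.46 for genes raised less, and 0.30 and -0.43 for genes lowered more. They were 0.31 and -0.53 for genes with a positive fitted effect in Cnsi and a negative one in PD-L1si. Over all genes tested the medians were -0.00311 and 0.0108. With library size alone in place of TMM, the median siRNA effect of all genes moved to 0.10 without IFNγ and 0.11 with it, and the median IFNγ effect in Cnsi from -0.03 to -0.17, while that of the interaction was 0.0351 with TMM and 0.0311 with library size alone. The signs of these class medians, with the classes as set under TMM, held under both scalings. The class sizes of the same calls moved. With library size alone, positive calls comprised 203 genes lowered less, 112 raised more and 63 with opposite signs. Negative calls comprised 53 raised less, 48 with opposite signs and 34 lowered more.

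**Figure D3:**
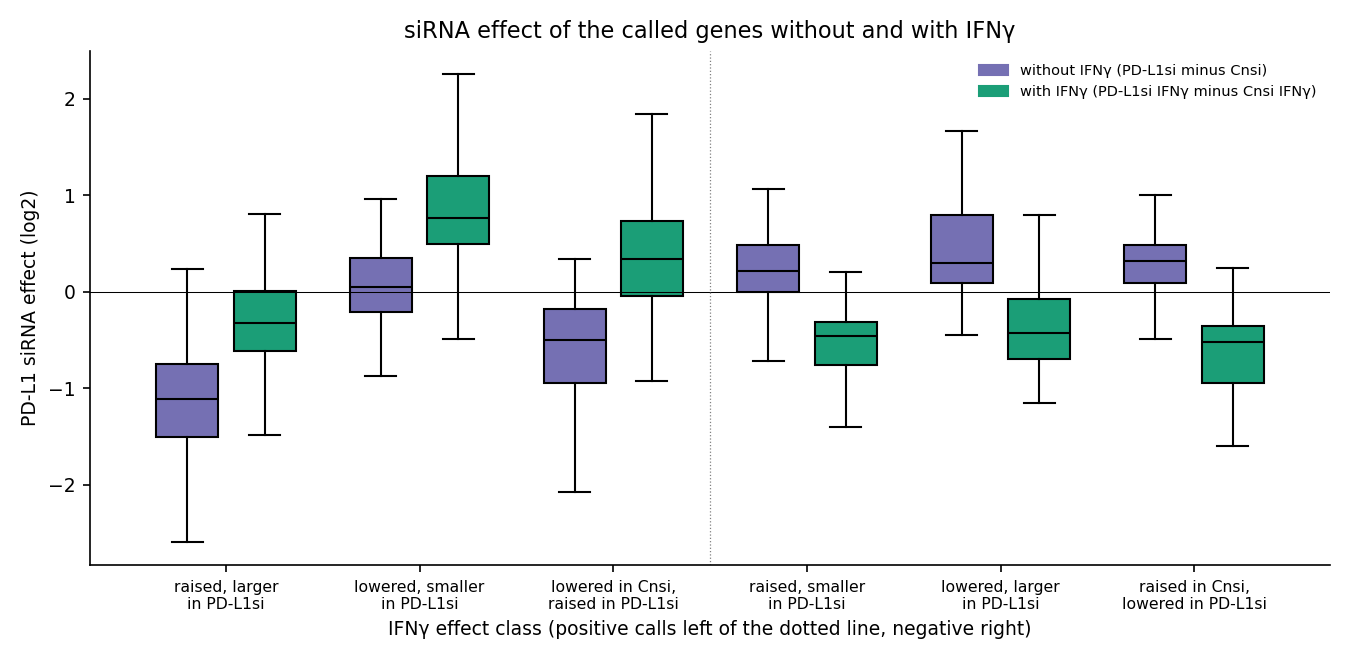
PD-L1 siRNA effect (vertical axis, log2) of the called genes without IFNγ (purple) and with IFNγ (green), by class of IFNγ effect, with positive calls on the left and negative calls on the right. Boxes span the quartiles with a line at the median, whiskers reach the last gene within 1.5 times the box height, and genes beyond are not drawn; the class raised more in PD-L1si has medians of -1.12 and -0.33.

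The sign of an interaction depends on the scale. On the linear scale, as a difference of CPM changes, 108 of the 378 positive calls (28.6 percent) had the opposite sign, against 2 of the 135 negative calls (1.48 percent). The opposite sign was most frequent in the genes raised more in PD-L1si, 67 of 122 (54.9 percent), followed by the genes lowered less, 41 of 184 (22.3 percent). *WARS1* gained 3970 CPM with IFNγ in Cnsi and 2849 in PD-L1si although its fold was larger in PD-L1si. *XAF1* gained 371 CPM in both.

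Base level, taken as mean CPM over the 12 samples, split the calls unevenly. Under 1 CPM 21 positive and 12 negative genes were called of 5952 tested, which is 0.353 and 0.202 percent. From 1 to 10 CPM there were 155 and 75 of 4941 (3.14 and 1.52 percent), and from 10 to 100 CPM 140 and 44 of 7785 (1.80 and 0.565 percent). At 100 CPM and over there were 62 positive and 4 negative of 2238 (2.77 and 0.179 percent). Positive calls per negative call therefore went from 1.75 and 2.07 in the lower bins to 3.18 and 15.5 in the upper bins. The precision differed between bins, with a median standard error of the log2 interaction of 0.765, 0.212, 0.0844 and 0.0610 from the lowest to the highest bin. At the adjusted p alone, 0.554, 5.42, 13.4 and 24.7 percent of genes passed in the same order.

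**Figure D4:**
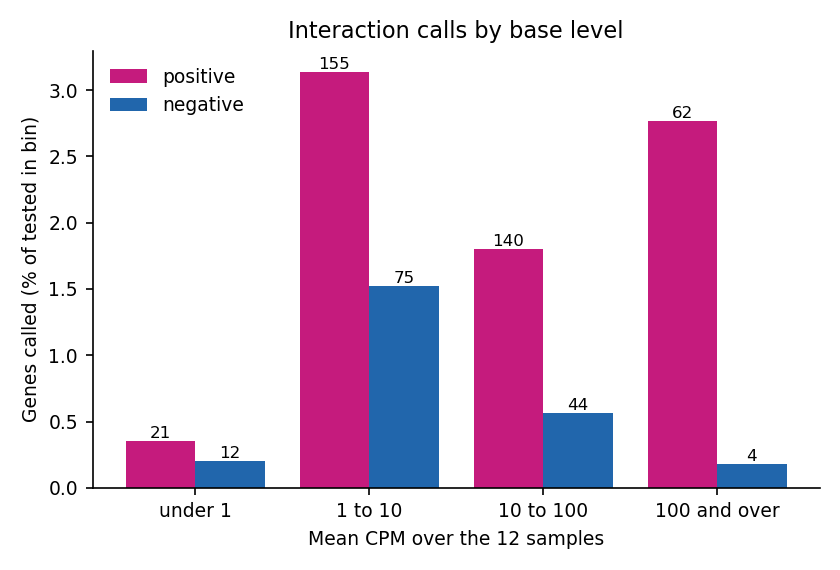
Share of tested genes called (vertical axis, percent) by mean CPM over the 12 A-498-labelled samples (horizontal axis), with positive calls in magenta, negative calls in blue and the number of genes above each bar. Negative calls drop to 4 genes at 100 CPM and over, where 62 are positive.

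By the mean of the 12 samples, which includes the IFNγ samples, the kind of positive call changed with level. IFNγ had a positive fitted effect in Cnsi in 3 of the 21 positive calls under 1 CPM, 27 of 155 from 1 to 10 CPM, 54 of 140 from 10 to 100 CPM and 38 of 62 at 100 CPM and over. By the mean of the Cnsi samples this trend was absent, with 7 of 17, 49 of 169, 46 of 142 and 20 of 50 in bins with the same bounds. In the highest bin the median log2 siRNA effect of the positive calls was -0.90 without IFNγ and -0.17 with it, and in the lowest bin it was -0.62 and 1.38. By the Cnsi mean these medians were -0.50 and 0.09 in the highest bin, where the value with IFNγ had the other sign, and -1.08 and 0.95 in the lowest. The highest bin held *IGFBP3*, *XAF1*, *GBP1*, *WARS1* and *PLIN2* among its positive calls, and *ATP2B1* among its negative calls. From 10 to 100 CPM the smallest p belonged to *GASK1B* and *MMP7* among positive and *CX3CL1* among negative calls, and from 1 to 10 CPM to *SLCO2B1* and *GASK1B-AS1*, and to *KIF26B* and *KCNK3*. Under 1 CPM they were the non-coding RNAs *LINC01151* and *CHILL1*, and the uncharacterised *ENSG00000287584* and the dystrophin relative *DRP2*. *LINC01151* had raw counts of 37, 47 and 44 in Cnsi, 1, 1 and 2 in Cnsi IFNγ, 34, 39 and 37 in PD-L1si, and 9, 6 and 9 in PD-L1si IFNγ. *DRP2* had 27, 27 and 25, then 23, 30 and 21, then 33, 20 and 34, then 8, 6 and 10 counts in the same order. The difference lay in the IFNγ groups for both, with *LINC01151* lower in Cnsi IFNγ and *DRP2* lower in PD-L1si IFNγ. *ENSG00000287584* had at most 4 counts in any sample, and its call was lost in 4 omissions of a sample. A group near 0, with a summed count under 10, was present in 16 positive and 2 negative calls.

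By the mean of the Cnsi samples there were 17 positive and 21 negative calls under 1 CPM, 0.810 positive per negative call, so positive calls were not the more frequent there. The other bins held 169 and 72, 142 and 41, and 50 and 1. By mean CPM per kilobase of exon, which compares genes of unequal length, positive calls were 91, 173, 96 and 17 and negative calls 44, 76, 13 and 0 in bins with the same bounds. The split per kilobase was chosen after seeing the data.

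In tryptophan and NAD metabolism 2 of 23 tested genes were positive (*KMO* and *WARS1*), 1 was negative (*KYNU*), against 1.81 and 0.645 percent over all genes, and the median was 0.16. *KMO*, kynurenine monooxygenase, was at 232, 235 and 226 CPM in Cnsi, 108, 126 and 114 in Cnsi IFNγ, 216, 223 and 225 in PD-L1si, and 171, 182 and 176 in PD-L1si IFNγ. The Cnsi IFNγ samples were the lowest and the PD-L1si IFNγ samples next, with IFNγ effects of 0.502-fold in Cnsi and 0.796-fold in PD-L1si (log2 interaction 0.67 ± 0.06), but *OPN3* on the other strand had nearly the same interaction, 0.68. *IDO1*, the enzyme that opens the kynurenine route, had raw counts of 2, 7 and 1 in Cnsi and 2, 2 and 0 in PD-L1si, with a mean of 590 CPM in Cnsi IFNγ and 530 in PD-L1si IFNγ. It was not called (edgeR quasi-likelihood test, BH-adjusted p = 0.403), nor were *NAMPT* (log2 interaction 0.03), *QPRT* (0.14), *AFMID* (0.43) and the glutamine transporter *SLC1A5* (0.20), of which *AFMID* and *SLC1A5* passed the adjusted p and missed only the size threshold. *CD38* had 0, 0 and 0 counts in Cnsi and was not called.

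Of 31 glycolysis genes tested 1 was called positive, *PDK4*, and none negative, with a median of 0.07. That share of calls was near the 2.45 percent called over all genes. At the adjusted p alone 8 members were positive and 0 negative, against 1327 and 573 of all 20916 genes tested. DESeq2 gave *PDK4* no adjusted p, and every alternative that gave it an adjusted p kept the call. *PDK4*, the kinase that inhibits pyruvate dehydrogenase, had raw counts of 71, 51 and 61 in Cnsi, 31, 32 and 31 in Cnsi IFNγ, 80, 68 and 62 in PD-L1si, and 61, 67 and 72 in PD-L1si IFNγ. The Cnsi IFNγ samples were below all others (log2 interaction 1.15). Cholesterol and fatty acid synthesis had 0 of 28 genes called by edgeR, against 2.45 percent over all genes, and also 0 by DESeq2 and 0 by limma voom. Of the 28 genes 10 had an unadjusted p under 0.05. At the adjusted p alone 5 were negative, against 573 of all 20916 genes tested. The median of this list was -0.05, and its largest value belonged to the sterol demethylase gene *CYP51A1* (-0.48 ± 0.17). Without Cnsi IFNγ replicate 1 or PD-L1si replicate 3 *CYP51A1* was called negative, at up to -0.57. In the glutamine list *GLUD2* had at most 14 counts in a sample and was called negative in 6 alternatives, among them without Cnsi IFNγ replicate 3, PD-L1si replicate 3 or PD-L1si IFNγ replicate 3.

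Hypoxia targets had 3 positive calls of 25 tested (*LOX*, *NDUFA4L2* and *PLIN2*), against 1.81 percent over all genes, none negative and a median of 0.31. DESeq2 called 2 of them and gave *NDUFA4L2* no adjusted p. *PLIN2*, a lipid droplet coat protein that clear cell tumours express strongly, was at 806, 799 and 800.3 CPM in Cnsi, 1519, 1504 and 1416 in Cnsi IFNγ, 341, 360 and 354 in PD-L1si, and 944, 970 and 970 in PD-L1si IFNγ. PD-L1si was below Cnsi in both treatments, with an IFNγ rise of 1.85-fold in Cnsi and 2.74-fold in PD-L1si (log2 interaction 0.57). *NDUFA4L2*, a mitochondrial HIF target and the positive call among 9 kidney and clear cell markers tested, was 2.09, 3.45, 0.936 and 3.31 CPM in the 4 groups (log2 interaction 1.11). That single call compares with 1.81 percent positive over all genes. Only 2 of the 9 markers had a positive interaction, and their median was -0.06. Checkpoint and natural killer ligands had 2 positive calls of 17 tested, against 1.81 percent over all genes, none negative and a median of 0.30. *ULBP1*, a ligand of the receptor NKG2D, rose 4.09-fold in Cnsi and 6.79-fold in PD-L1si (0.73), and *ICOSLG*, a costimulatory ligand, was 1.19-fold and 2.12-fold (0.84). *VTCN1* had at most 8 counts in a sample and was not called. In the cell cycle list 1 of 37 genes was called, *CCNE2* (cyclin E2, 0.51), none negative, and the median was 0.15. That share of calls was near the 2.45 percent called over all genes. At the adjusted p alone 13 members were positive and 7 negative, against 1327 and 573 of all 20916 genes tested. The *CCNE2* value ran from 0.43 (without PD-L1si replicate 1) to 0.55 over the alternatives, of which 10 lost the call.

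Among the genes that the study names as regulated by IFNγ through PD-L1, 6 of 8 were tested, and 2 were called positive, *ATF3* and *FGF14*, against 1.81 percent over all genes, with a median of 0.39. The study chose this list on these samples, so its direction is not independent evidence. It compared Cnsi IFNγ with Cnsi and PD-L1si IFNγ with Cnsi IFNγ, which is not the interaction. The study proposes that these genes need PD-L1 for their regulation by IFNγ. A positive interaction goes the other way on the fold scale. The fitted IFNγ folds in Cnsi and PD-L1si were 11.7 and 18.7 for *ATF3*, and 1.52 and 5.44 for *FGF14*. *FGF14*, an intracellular fibroblast growth factor homologue, had raw counts of 11, 12 and 12 in Cnsi, 24, 13 and 13 in Cnsi IFNγ, 4, 2 and 5 in PD-L1si, and 12, 13 and 23 in PD-L1si IFNγ. PD-L1si samples without IFNγ were the lowest, and the call of *FGF14* (log2 interaction 1.84) was lost in 9 of the 12 omissions of a sample, with the largest adjusted p, 0.145 in edgeR's quasi-likelihood test with BH adjustment, without PD-L1si IFNγ replicate 3. *TNFAIP3*, an inhibitor of NF-κB signalling, had a log2 interaction of 0.46 ± 0.08 and *C3*, the central complement component, 0.31 ± 0.06, both under the size threshold at an adjusted p of 0.000116 and 0.000143 (edgeR quasi-likelihood test, BH). *TRAF1*, an adaptor of TNF receptors, had 0.13 and *CHST2*, a sulfotransferase, -0.14, neither past the test. *A4GNT* and *FUT6* had 9 and 7 counts over the 12 samples and were not tested.

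The same contrast was fitted in the 12 samples labelled 786-0, which share no library with the A-498-labelled samples and had 26807875 to 30350461 counts each. There 8 genes of 21209 were called positive (0.0377 percent) and 13 negative (0.0613 percent). Both counts moved strongly when single samples were left out, with the ranges given under the dependence on processing. Shares of these short lists are therefore unstable. A total of 1475 genes with over 1000 counts in the A-498-labelled samples, *ACTB* among them, are listed at 0 in all 786-0-labelled samples, so the lines were compared over the 17999 genes tested in both. Line and sequencing instrument cannot be told apart. Of the A-498 calls 335 positive and 122 negative genes were tested in both, and 1 of each was also called with the same sign in the 786-0-labelled samples, which is 0.299 percent of the positive A-498 list and 14.3 percent of the 7 positive 786-0 calls tested in both, and 0.820 and 7.69 percent for the negative lists. The median 786-0 interaction was 0.03 for the A-498 positive calls, -0.05 for the negative calls and 0.01 over all genes. The difference of the interactions, 786-0 minus A-498, was itself called positive in 0.411 percent and negative in 1.13 percent of genes tested in both. It was called in 134 of the positive and 40 of the negative A-498 calls, and since it reuses the A-498 values by which these genes were chosen, its direction among them follows largely from that choice. The fitted siRNA effect on *CD274* also differed in size between the lines, a difference that was not tested. Its raw counts in the 786-0-labelled samples were 121, 117 and 122 in Cnsi, 1554, 1612 and 1670 in Cnsi IFNγ, 42, 37 and 58 in PD-L1si, and 853, 894 and 848 in PD-L1si IFNγ. PD-L1si was below Cnsi in both treatments, with a log2 siRNA effect of -1.42 without IFNγ and -0.94 with it, smaller than the -2.47 and -2.81 in the A-498-labelled samples, so line and degree of knockdown cannot be told apart.

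**Figure D5:**
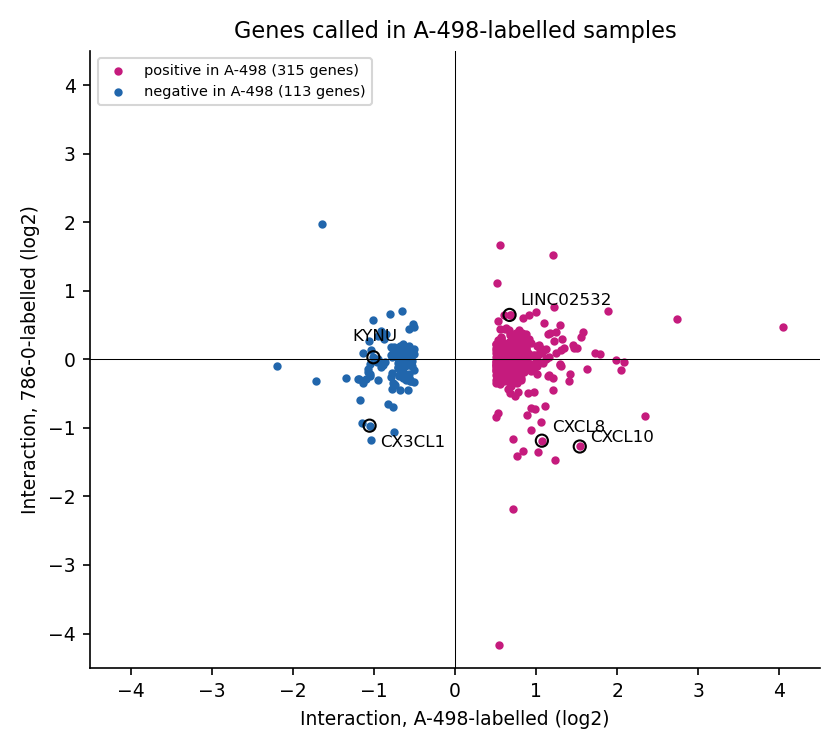
Interaction in the 786-0-labelled samples (vertical axis, log2) against interaction in the A-498-labelled samples (horizontal axis, log2) for the A-498 calls that were tested in both lines and had a mean of at least 1 CPM (315 positive in magenta, 113 negative in blue). Most points lie near 0 on the vertical axis, with *CX3CL1* and *LINC02532* on the same side in both lines and *CXCL10* and *CXCL8* with opposite fitted signs.

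*CX3CL1* was the shared negative gene, and in the 786-0-labelled samples it was at 1.82, 2.18 and 2.16 CPM in Cnsi, 28.4, 27.2 and 25.4 in Cnsi IFNγ, 3.05, 2.88 and 3.18 in PD-L1si, and 19.4, 22.7 and 19.3 in PD-L1si IFNγ. The groups kept the order seen in the A-498-labelled samples and did not overlap. Its 786-0 log2 interaction was -0.97 ± 0.15 (edgeR quasi-likelihood test, BH-adjusted p = 0.00432), and the difference between lines was 0.09 ± 0.18 (adjusted p = 0.883 by the same test). *LINC02532*, a long non-coding RNA chosen after its values were seen, was the shared positive gene. In the A-498-labelled samples it was at 108, 110 and 107 CPM in Cnsi, 16.3, 20.9 and 17.5 in Cnsi IFNγ, 106, 102 and 108 in PD-L1si, and 27.2, 25.6 and 32.02 in PD-L1si IFNγ. In the 786-0-labelled samples the values were 18.9, 17.9 and 20.2, then 5.41, 5.59 and 5.67, then 19.6, 18.1 and 17.9, then 9.09, 7.41 and 8.98 CPM. In both lines the base groups overlapped and PD-L1si IFNγ was above Cnsi IFNγ, with log2 interactions of 0.67 and 0.65.

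*CXCL10* had the largest called difference between lines among the named genes with at least 1 CPM. Its raw counts in the 786-0-labelled samples were 5, 3 and 8 in Cnsi, 2659, 2420 and 2019 in Cnsi IFNγ, 9, 13 and 8 in PD-L1si, and 1777, 1839 and 1895 in PD-L1si IFNγ. The base level was not lower in PD-L1si there, and the 786-0 log2 interaction of -1.27 ± 0.42 was not called (edgeR quasi-likelihood test, BH-adjusted p = 0.337), while the difference between lines was -2.81 ± 0.52 (adjusted p = 0.00078 by the same test). *CXCL8* had at most 23 counts in any 786-0-labelled sample, and its 786-0 log2 interaction of -1.19 was not called. *ATF3* and *C3* had 786-0 log2 interactions of -0.49 and -0.40, opposite in sign to their A-498 values. Both missed the size threshold but passed the adjusted p (0.00911 and 0.0353, edgeR quasi-likelihood test, BH). *PLIN2* had the same sign in both lines, with a 786-0 value of 0.32 (adjusted p = 0.0240 by the same test).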

How the data were processed

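Messenger RNA of 24 samples was sequenced, and the authors converted reads with bcl2fastq 2.19.0, trimmed them with Trimmomatic 0.36.6, aligned them to GRCh38 with HISAT2 2.1.0 and counted them on genes with featureCounts 1.6.3. The deposited values are raw counts on 39321 genes. Names, biotypes and positions came from GENCODE 44 by Ensembl identifier without version, which matched 39148 genes and not the other 173. Groups were taken from the labels.

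In R 4.3.3, genes with counts that summed to at least 10 in a group were scaled by TMM and fitted in edgeR 4.0.16 (quasi-likelihood, robust, legacy form) with a mean per group of 3 samples. The interaction was (PD-L1si IFNγ minus PD-L1si) minus (Cnsi IFNγ minus Cnsi). Genes were called at a Benjamini-Hochberg adjusted p under 0.05 and a log2 size over 0.5. The lines were compared in a model of all 24 samples. Errors of log2 values are standard errors. Alternatives used limma 3.58.1 and DESeq2 1.42.0, and other scalings, filters, thresholds and omissions.

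Named genes were *CD274*, the 10 largest calls of each direction with at least 1 CPM and 10 counts in every group, the 2 smallest p per base-level bin and direction, the study's genes, and of 24 lists up to 4 called members and the largest value. The members and lists were chosen with earlier results of these data known. The pipeline was tested on simulated data. Some named genes that met these rules, among them 1 with a called difference between the lines, are not reported here.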

Additional observations from a re-analysis of the deposited data

Results flagged for a closer look

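The interaction of 44 named genes differed between the lines by edgeR's quasi-likelihood test of the difference itself, 786-0 minus A-498, at a BH-adjusted p under 0.05 and a log2 size over 0.5. All values are log2 differences of interactions. Most of these genes were chosen as A-498 calls and the difference reuses the same A-498 values, so the signs below follow largely from that choice.

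The 786-0 value was lower in 35 genes, among them -3.17 for *CHILL1*, -2.81 for *CXCL10*, -2.68 for *LINC01151*, -2.25 for *CXCL8*, -2.19 for *GASK1B-AS1*, -1.76 for *GASK1B* and -1.64 for *IL6*. Differences between -1.5 and -1 included -1.39 for *PDK4*, -1.38 for *CXCL1*, -1.37 for *XAF1* and -1.22 for *SLCO2B1*. Further differences in this range were -1.18 for *ACSM2A*, -1.16 for *ATF3*, -1.12 for *IGFBP3*, -1.10 for *C1QTNF1*, -1.10 for *MMP7* and -1.09 for *IRF7*. Differences between -1 and -0.7 were -0.99 for *GBP1*, -0.96 for *COL12A1*, -0.95 for *CDH6*, -0.90 for *PSMB9* and -0.89 for *AKR1C3*. Further differences in this range were -0.86 for *CCNE2*, -0.85 for *TNFAIP3*, -0.79 for *WARS1*, -0.70 for *C3* and -0.70 for *DDIT3*. The smaller negative differences were -0.68 for *IRF1*, -0.62 for *C1R*, -0.60 for *JUNB*, -0.60 for *KMO*, -0.56 for *STC2*, -0.53 for *LOX* and -0.53 for *PTPN6*. 

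The 786-0 value was higher in 9 genes, with a difference of 0.61 for *CHST2*, 0.66 for *ATP2B1*, 0.72 for *GOT1*, 0.84 for *SOCS3* and 0.84 for *STARD8*, and of 0.93 for *KCNK3*, 1.04 for *KYNU*, 1.08 for *CMKLR2* and 1.59 for *KIF26B*.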

How the results depend on the processing

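No named called gene changed sign under any alternative; uncalled genes near 0, such as *NAMPT* (-0.02 to 0.06), did. By the Cnsi base level the balance of calls under 1 CPM turned, from 21 positive and 12 negative to 17 and 21. By DESeq2 257 positive and 100 negative genes were called, of which 256 and 84 were also called by edgeR with the same sign, and by limma voom 357 and 129. RLE scaling gave 319 and 151, library size alone 365 and 137, the filterByExpr filter 353 and 148, no filter 331 and 145, and protein-coding genes only 266 and 107. A block for replicate gave 394 and 140, of which 373 and 131 were shared with the fit without it. Replicate numbers showed no sign of pairing, with a mean correlation of residuals of 0.0141 (-0.026 to 0.0459) between the 18 same-number pairs of samples and -0.00704 between the others. The newer quasi-likelihood fit gave 377 and 137, and no robust estimation 378 and 138.

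The threshold set the counts: the adjusted p alone gave 1327 and 573, and a log2 size over 1 gave 84 and 35. Leaving out a sample at a time gave 288 to 422 positive and 101 to 159 negative calls. Leaving out called genes that overlap a called gene on the other strand, an alternative added after seeing the data, gave 328 and 129. By the Cnsi base level 1 negative call was at 100 CPM and over. Per kilobase, also added after seeing the data, 91 positive and 44 negative calls were under 1, 13 negative calls from 10 to 100, and 17 positive and 0 negative at 100 and over.

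In the 786-0-labelled samples the omissions gave 3 to 12 positive and 5 to 28 negative calls (the highest negative count without Cnsi IFNγ replicate 1), and the replicate block 7 and 11. The block gave 77 positive and 201 negative differences between lines, against 74 and 203. Of 74 named genes called, 58 kept their call in every alternative that gave an adjusted p and 16 lost it in at least 1. DESeq2 gave no adjusted p to 29 of the 96 named genes.

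With 3 samples a group and 19256316 to 27907526 counts each, genes under 1 CPM had a median standard error of 0.765 on the log2 scale, so small interactions of such genes were not detectable at this depth. Fitted folds of genes with a group near 0 counts depend on the prior count. Reads of opposite-strand and paralogous genes cannot be separated with confidence. Errors cover the spread between these samples and not, as far as the labels say, between cultures. A log2 interaction and a difference of CPM changes can have opposite signs.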
